A study of Mus musculus with 2 samples.

Results

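The genes described here are the 7 fibrillar collagen chains Col1a1, Col1a2, Col3a1, Col5a1, Col5a2, Col5a3 and Col24a1, chosen by name from the 31054 features of each library. They were followed in stellate, endothelial and Kupffer cells of livers from male mice given carbon tetrachloride (CCl4) for 4 weeks together with tamoxifen and diphtheria toxin. There was 1 single-cell RNA library of each of 2 genotypes, prepared from hepatic stellate cells (HSCs) purified on a density gradient. The p16-Alb-LRTD mice carried p16-CreERT2, Alb-DreERT2 and the reporter R26-CAG-LSL-RSR-tdTomato-2A-DTR. In this reporter the diphtheria toxin receptor is meant to be released where both recombinases act, that is, in hepatocytes with an active p16 promoter. The p16-LRTD mice carried p16-CreERT2 and the same reporter without the hepatocyte recombinase, and received the same agents. The question was how the elimination of p16-high hepatocytes went with collagen expression in other liver cells. The age of the mice and the number of mice behind each library are not given in the sources used here, so that every difference below is one between 2 libraries, with no replicate check and no test.

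Fibrillar collagens are the rope-like proteins of scar tissue. Their chains, alike or different, wind around each other into a helix inside the cell, are secreted as procollagen, lose their end propeptides and pack side by side into fibrils that are then crosslinked. In the injured liver, activated stellate cells are the main source of type I collagen (Col1a1 and Col1a2 chains) and type III collagen (Col3a1). Type V collagen (Col5a1, Col5a2 and Col5a3) is a minor component that starts and limits fibril growth, and Col24a1 encodes a minor fibrillar chain best known from bone.

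The p16-LRTD library held 11149 barcodes and the p16-Alb-LRTD library 8806, of which 9004 and 7416 passed the filters on mitochondrial share, genes and unique molecular identifiers (UMIs, each counting 1 captured RNA molecule). Median depth of the kept cells was 17177 and 18273 UMIs. A cell was called stellate with at least 15 UMIs per 10000 of Lrat, Ecm1, Hgf and Reln, endothelial with at least 8 of Kdr, Stab2 and Ptprb, and Kupffer with at least 8 of Clec4f, Cd5l, Vsig4 and Csf1r, and was used when it passed 1 of these gates only. The stellate class held 7852 and 6621 cells, the endothelial class 430 and 283, and the Kupffer class 283 and 178. Markers outside the gates were highest in the class they mark. The stellate list Des, Pdgfrb, Colec11, Rgs5 and Dcn summed to 24552 and 27285 CPM (UMIs scaled to a common total of 1000000) in stellate cells, against 436 and 345 in endothelial and 333 and 298 in Kupffer cells. A list of 5 endothelial markers summed to 4624 and 4136 CPM in endothelial and 34.2 and 20.2 in stellate cells, but 449 and 664 in Kupffer cells, mostly Cdh5 (361 and 530), so the Kupffer class was not free of endothelial markers. A list of 5 Kupffer markers summed to 7672 and 10034 CPM in Kupffer cells and to 62.1 and 46.2 in endothelial cells. The libraries had 95 barcode sequences in common, 14 of them among stellate cells, and the summed chains differed by the same log2 ratio of -1.45 with and without them.

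In the mouse genome (GRCm38, GENCODE vM21) the 7 genes lie on 6 chromosomes. Col1a1 is at chr11:94936224-94953042, Col1a2 at chr6:4504814-4541544, Col5a1 at chr2:27886425-28039514 and Col24a1 at chr3:145292472-145552011, all on the plus strand, and Col5a3 is at chr9:20770050-20815067 on the minus strand. Col3a1 (chr1:45311538-45349706, plus strand) and Col5a2 (chr1:45374321-45503282, minus strand) are neighbours that end 24614 bp apart, each running towards the other. Shorter annotated genes on the same strand overlap Col1a2 (Gm43921), Col3a1 (Gm47302), Col5a2 (Gm38211) and Col24a1 (D530037P16Rik), so that a read in the shared stretch could not be given to 1 gene. RefSeq (GRCm38.p6) gave a promoter for 5 of the 7 genes. Those of Col3a1, Col5a1 and Col24a1 are shown because these 3 genes stand for the different patterns described below. Each line runs over 250 bases up to the base before the start of the gene, and capitals mark every match on either strand to 4 motifs, which do not overlap here. The motifs were CCAAT, bound by nuclear factor Y in many promoters, TATAAA, found where transcription starts at a fixed place, GGGCGG, bound by Sp1 and related factors, and CAGAC, bound by SMAD proteins.
Col3a1, chr1:45311288-45311537, plus strand: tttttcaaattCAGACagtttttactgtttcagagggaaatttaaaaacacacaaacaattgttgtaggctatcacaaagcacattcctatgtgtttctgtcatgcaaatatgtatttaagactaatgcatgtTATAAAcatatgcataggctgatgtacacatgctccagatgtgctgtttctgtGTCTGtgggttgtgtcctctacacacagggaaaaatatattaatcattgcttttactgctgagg
Col5a1, chr2:27886175-27886424, plus strand: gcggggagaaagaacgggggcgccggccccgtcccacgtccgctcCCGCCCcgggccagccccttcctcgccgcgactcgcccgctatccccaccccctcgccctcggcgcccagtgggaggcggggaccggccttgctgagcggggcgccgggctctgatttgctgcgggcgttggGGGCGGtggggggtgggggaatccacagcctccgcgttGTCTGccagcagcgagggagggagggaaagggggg
Col24a1, chr3:145292222-145292471, plus strand: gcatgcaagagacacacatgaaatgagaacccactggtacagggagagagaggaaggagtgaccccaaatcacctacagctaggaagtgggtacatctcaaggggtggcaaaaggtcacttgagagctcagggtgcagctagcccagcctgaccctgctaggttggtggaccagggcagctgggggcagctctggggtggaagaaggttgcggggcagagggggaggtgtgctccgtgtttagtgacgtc

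The Col3a1 window was poor in G and C (35.2%, against a median of 52.4% over 32851 promoters of the same table) and had no CpG. It held 2 CAGAC and 1 TATAAA, the latter near the middle of the window and not close to the start of the gene. Whether this match sets a start of transcription was not tested. The Col5a1 window had 76.4% G and C with 28 CpG, 2 GGGCGG and 1 CAGAC. The Col24a1 window (58.0% G and C, 3 CpG) held none of the 4 motifs. Among all promoters of the table, 33.8% held CCAAT, 12.4% TATAAA, 32.7% GGGCGG and 42.2% CAGAC.

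In stellate cells 6 of the 7 chains were lower in p16-Alb-LRTD, 5 of them by 2-fold or more, and Col24a1 was slightly higher. With both libraries given the same shares of 5 bins of the stellate marker sum, Col1a2 and Col5a2 were under 2-fold (log2 ratios of -0.99 and -0.93), as was Col5a2 (-0.98) when per-cell CPM were averaged. Of 10179 genes with at least 5 CPM on average, 0.943% were lower by 2-fold or more and 0.923% higher. The median log2 ratio of p16-Alb-LRTD over p16-LRTD was -1.21 over the 7 chains and -0.05 over all these genes. The values below are CPM of the summed stellate cells with 95% intervals that cover counting error alone.

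Col1a1, the more numerous chain of the type I molecule, had 1950.2 CPM (1943 to 1957) in p16-LRTD and 504 (500.01 to 507.9) in p16-Alb-LRTD, 3.87-fold lower, with a log2 ratio of -1.95 (-1.96 to -1.94). Col1a2, its partner chain, had 2318 (2310.1 to 2326) and 1004 (999 to 1009.8), a log2 ratio of -1.21 (-1.22 to -1.20). Col3a1, which forms type III collagen on its own, was the most abundant chain in both libraries, at 4085 (4074 to 4095) and 1343 (1337 to 1349.8), a log2 ratio of -1.60 (-1.61 to -1.60). These 3 chains made up most of the 9205 and 3380.4 CPM of the summed set, which was 2.72-fold lower.

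The type V chains were lower by unequal amounts. Col5a1, the chain found in nearly all type V molecules, had 439 CPM (436 to 443) and 294 (291 to 297), 1.49-fold lower, the smallest difference among the 6 lower chains. Col5a2 had 326 (323 to 329) and 151 (149 to 153), with a log2 ratio of -1.11 (-1.14 to -1.09). Col5a3, the rarest chain, had 16.02 (15.4 to 16.7) and 5.43 (5.03 to 5.85), with a log2 ratio of -1.56 (-1.69 to -1.44), an amount close to that of Col3a1 although its level was far below.

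Col24a1 had 70.3 CPM (68.9 to 71.7) in p16-LRTD and 78.4 (76.8 to 79.9) in p16-Alb-LRTD, with a log2 ratio of 0.16 (0.12 to 0.20). This small excess turned to -0.029 when both libraries were given the same shares of 5 bins of the stellate marker sum, so its direction depended on that choice. Col24a1 (259540 bp) and Col5a1 (153090 bp) are the longest of the 7 genes, and whether intronic reads, which would add most to long genes, were counted is not given in the sources used here, so what part they had in these levels was not tested. As a result of these unequal ratios the chains' shares of the summed UMIs differed. Col1a1 supplied 21.2% of them in p16-LRTD and 14.9% in p16-Alb-LRTD, Col5a1 4.77% and 8.71%, and Col24a1 0.764% and 2.32%.

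**Figure D1:**
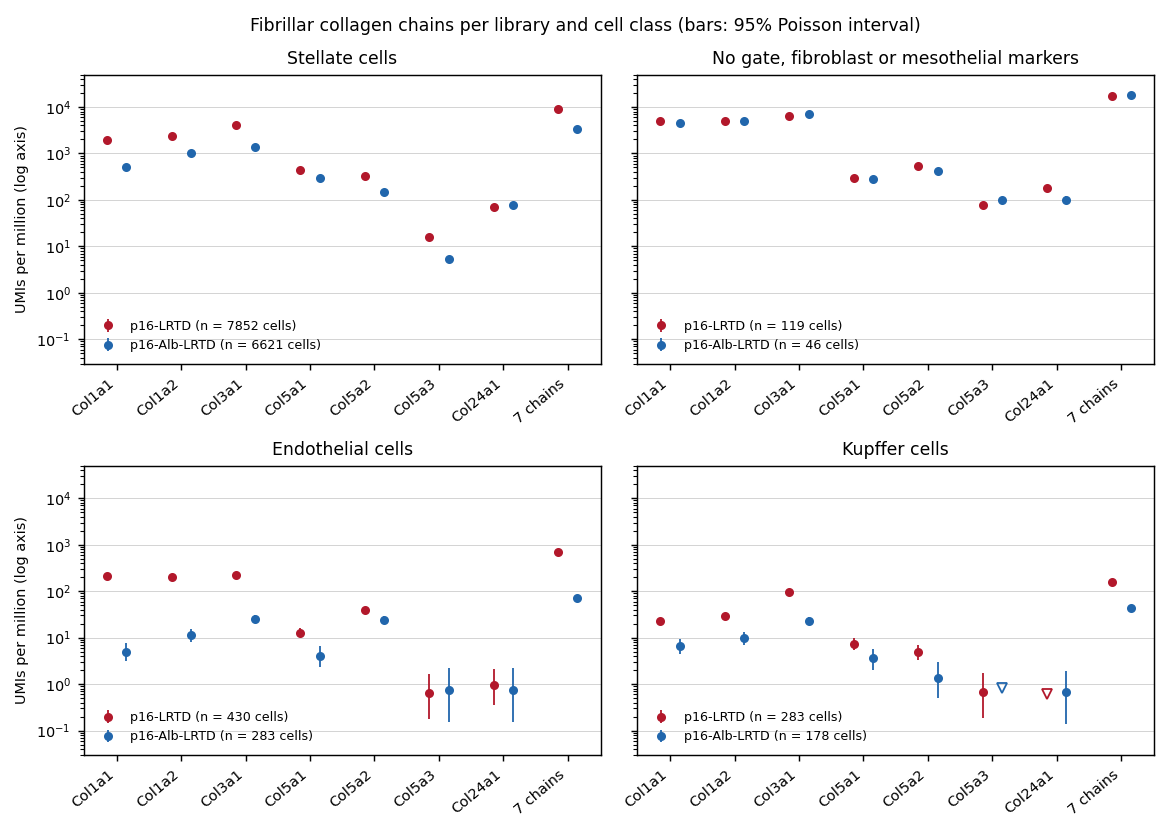
CPM (log axis) of each chain and of the 7 chains summed, by library, in 4 classes of cells; points are values of the summed cells of 1 library, bars 95% Poisson intervals (hidden where smaller than the point), and open triangles the upper bound for a chain with no UMI. In stellate cells the points of p16-Alb-LRTD lie below those of p16-LRTD for all chains but Col24a1, whereas in cells of no gate with fibroblast or mesothelial markers the summed chains were at 17537 and 17706 CPM.

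Markers of other cells also differed between the stellate classes. The proliferation genes Mki67, Top2a, Cdk1, Birc5 and Ube2c summed to 105 and 25.0 CPM (5 of 5 lower in p16-Alb-LRTD). The smooth muscle genes summed to 151 and 73.9 CPM (2 of 3 lower), nearly all of it Myh11 (150 and 73.8). Cnn1 (0.035 and 0.064) and Actg2 (0.40 and 0.080) were close to 0. A list of 7 portal fibroblast genes summed to 110 and 59.9 CPM (7 of 7 lower), mostly Dpt (60.4 and 29.7) and C3 (31.6 and 23.0). Of that list, Mgp, Igfbp6, Fbln2 and Thy1 had at most 2.36 CPM (Mgp in p16-LRTD). Mesothelial markers stood at 44.6 and 43.7 CPM and hepatocyte markers at 20.9 and 15.4. Without cells that had at least 2 UMIs of the proliferation genes the summed chains kept a log2 ratio of -1.42, and without cells rich in fibroblast or mesothelial markers one of -1.31.

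The 2 chains of type I collagen were not lower by the same factor. There were 0.841 Col1a1 UMIs per Col1a2 UMI in p16-LRTD (0.837 to 0.846) and 0.502 in p16-Alb-LRTD (0.497 to 0.507), a log2 difference of -0.75 (-0.76 to -0.73). Col3a1 per Col1a2 was 1.76 and 1.34, and Col5a1 per Col5a2 was 1.35 and 1.95. The balance thus differed for each pair, with Col1a2 and Col5a1 each the chain of its pair that was lower by the smaller factor.

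Single cells did not differ evenly. For Col1a1, Col1a2 and Col3a1 the ratio between libraries was larger at the 90th percentile of cells than at the median. Col1a2 at the 10th percentile of stellate cells was 379 CPM in p16-LRTD and 362 in p16-Alb-LRTD, at the median 1007.3 and 782, and at the 90th percentile 5062 and 1756. Col3a1 was 1.21-fold lower at the 10th percentile (490 and 404 CPM) and 3.88-fold lower at the 90th (9846 and 2539). Col1a1 was at 0 in both libraries at the 10th percentile, which is a floor, 1.90-fold lower at the median (382 and 201 CPM) and 3.97-fold lower at the 90th percentile (4805 and 1211).

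The ratio of Col5a1 did not widen in this way. It was 1.94-fold at the 10th percentile (174 and 89.6 CPM), 1.52-fold at the median (401 and 264) and 1.37-fold at the 90th percentile (715 and 522). At the depth of these cells the low percentiles of every chain stand for a few UMIs per cell, so the ratios there do not show where a difference sat. Col5a2 lay between, at 1.69-fold at the median (194 and 115 CPM) and 2.16-fold at the 90th percentile (696 and 322). Col24a1 was within 1.08-fold at the 90th percentile (191 and 206 CPM).

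**Figure D2:**
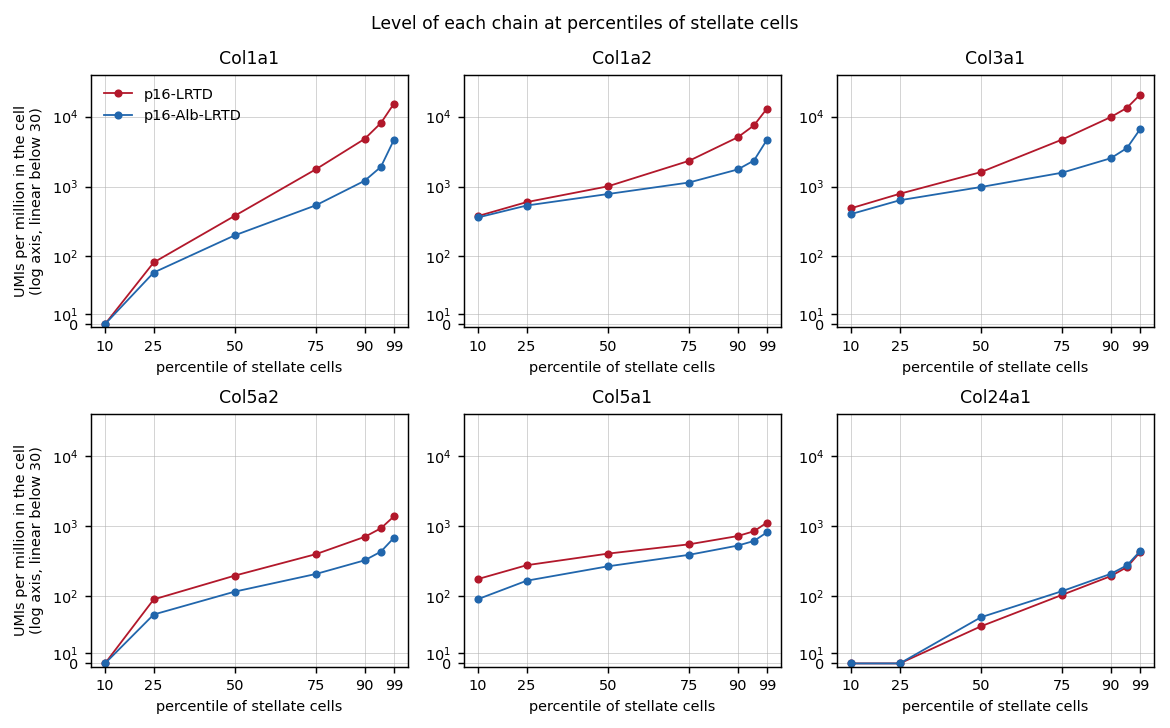
Level of 6 chains (CPM within the cell, log axis that is linear below 30) at the 10th to 99th percentile of stellate cells, 1 line per library. The lines of Col1a2 start together at the 10th percentile and separate upwards, those of Col5a1 run apart at every percentile, and those of Col24a1 nearly coincide above the median.

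After each cell had been thinned to 5000 UMIs, the 10% of cells with the most chain UMIs held 41.2% of all chain UMIs in p16-LRTD and 30.2% in p16-Alb-LRTD. Ranked by the other 6 chains, so that a chain did not choose its own cells, the top 10% held 53.0% and 45.4% of Col1a1 UMIs, 40.4% and 26.2% of Col1a2 and 37.5% and 27.0% of Col3a1. For Col5a1 the shares were 14.2% and 10.99%, against the 10% of an even spread. Col24a1 was under-represented in these cells, with 4.28% and 4.57% of its UMIs.

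The share of cells with a UMI differed little for some chains and clearly for others. Col1a2 was seen in 96.5% of thinned p16-LRTD stellate cells against 96.1% in p16-Alb-LRTD, and Col3a1 in 97.9% and 96.7%, although their mean UMIs per cell were 10.2 and 4.97, and 18.1 and 6.70. Col1a1 was seen in 68.7% (67.7 to 69.8) and 60.4% (59.2 to 61.6), Col5a1 in 85.6% and 72.0%, and Col5a3 in 7.12% (6.56 to 7.71) and 2.59% (2.22 to 3.00). Col24a1 was seen in 25.0% and 27.1%. In Kupffer cells, which are macrophages and should lack these chains, Col1a1 was seen in 7.55% and 1.69%, and Col3a1 in 34.9% and 12.99%. Col5a3 was seen in 0 of 278 Kupffer cells of p16-LRTD and 0 of 177 of p16-Alb-LRTD. The Clopper-Pearson upper bounds of these 2 shares were 1.32% and 2.06%. Before thinning, median depth was 17025 and 18136 UMIs in stellate cells and 19514 and 25102 in Kupffer cells, and Col1a1 was seen in 83.5% and 82.2% of stellate cells. The shares of cells with Col1a1 were thus close at full depth and apart at equal depth, while those with Col5a3 were apart at both, at 21.2% and 8.47% without thinning.

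Across stellate cells the chains formed a tight group and a loose remainder. On log counts of the thinned cells, Pearson's r between Col1a1 and Col3a1 was 0.84 over 7836 p16-LRTD cells and 0.57 over 6614 p16-Alb-LRTD cells, and that between Col1a1 and Col1a2 was 0.82 and 0.55. Col5a2 followed the major chains less closely, with r of 0.57 and 0.29 to Col1a1. Col5a1 had r of 0.16 and 0.02 to Col3a1, and Col24a1 r of -0.09 and -0.08. These values describe cells of 1 library each, share its depth, and are weaker where counts are lower.

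Cells of high Col3a1 were nearly missing from p16-Alb-LRTD. At least 32 Col3a1 UMIs per 5000 were found in 1486 of 7836 stellate cells of p16-LRTD (19.0%, 18.1 to 19.8) and in 76 of 6614 of p16-Alb-LRTD (1.15%, 0.906 to 1.44). Cells were then grouped by Col3a1 level. Since Col3a1 itself differed and varied with the type I chains from cell to cell, grouping by it takes away much of their difference by construction, and the values are given as a description. With 0 to 3 Col3a1 UMIs, Col1a1 was higher in p16-Alb-LRTD, with 0.531 and 0.751 UMIs per 5000 (log2 ratio 0.50, 0.38 to 0.62), and with 4 to 7 its log2 ratio was 0.43 (0.35 to 0.51). With 16 to 31 Col3a1 UMIs, Col1a1 averaged 9.60 UMIs per 5000 in p16-LRTD and 9.84 in p16-Alb-LRTD (log2 ratio 0.04, -0.02 to 0.09), and Col1a2 11.7 and 11.8. Col1a2 was lower in the 2 bins above, with a log2 ratio of -0.43 (-0.58 to -0.27) at 64 or more, a bin of 458 and 10 cells. Intervals left out 0 in 2 of 6 bins for Col1a1, both higher, and in 4 of 6 for Col1a2, 2 higher and 2 lower. The count of Col1a1 per Col1a2 increased with Col3a1 level in both, from 0.183 and 0.241 in cells of 0 to 3 Col3a1 UMIs to 0.822 and 0.833 in cells of 16 to 31. At the Col3a1 bin shares of p16-Alb-LRTD, the log2 ratio was 0.16 for Col1a1 and 0.07 for Col1a2, and -0.17 for Col5a2.

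Col5a1 and Col5a3 varied little with Col3a1 from cell to cell (r of 0.16 and 0.02, and of 0.01 and -0.01), so grouping by it could move them little. In cells of equal Col3a1 level Col5a1 was lower in p16-Alb-LRTD in 6 of 6 bins, each with an interval below 0, and its log2 ratio at equal bin shares was -0.44, against -0.56 without matching. Col5a3 was lower in 6 of 6 bins (4 with an interval below 0), with a log2 ratio of -1.45 at equal bin shares. With cells grouped by Col1a2 instead, the log2 ratio at equal bin shares was -0.26 for Col1a1, -0.55 for Col3a1, -0.37 for Col5a2, -0.47 for Col5a1 and -1.45 for Col5a3. Col3a1 was then lower in 5 of 5 bins that held cells of both libraries, so the result of matching differed with the chain that was binned.

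**Figure D3:**
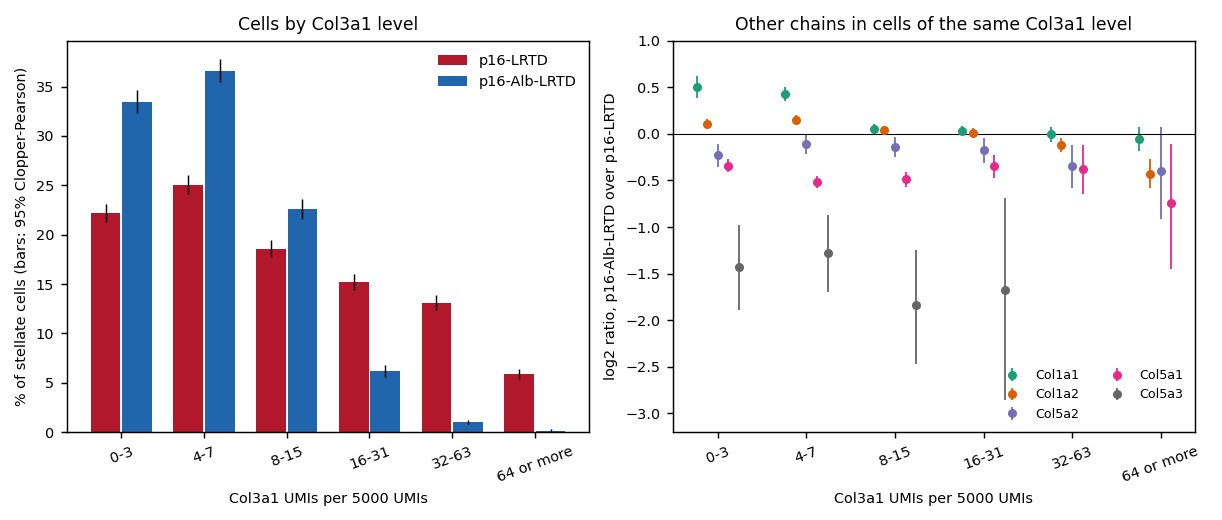
Left, share of stellate cells (%, with 95% Clopper-Pearson intervals) at each Col3a1 level, in UMIs per 5000, for both libraries. Right, log2 ratio of p16-Alb-LRTD over p16-LRTD for 5 other chains in cells of the same Col3a1 level, with 95% counting intervals (Col5a3 for the 4 lower bins). Cells of 32 or more UMIs made up 19.0% and 1.15%, and within bins Col1a1 and Col1a2 lie near or above 0 up to 31 UMIs while Col5a1 and Col5a3 lie below it.

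The stellate class was next divided by its own markers. Cells with a lower sum of Lrat, Ecm1, Hgf and Reln had more collagen in both libraries, and they were fewer in p16-Alb-LRTD. Cells with a sum of 30 to 60 per 10000 made up 14.5% of stellate cells in p16-LRTD and 8.74% in p16-Alb-LRTD, and cells with 120 or more 11.04% and 19.6%. The summed chains had 19403 and 6597 CPM in the first of these bins and 3598 and 2293 in the second, log2 ratios of -1.56 and -0.65. All chains but Col24a1 were lower in 5 of 5 bins. With both libraries given the same bin shares the log2 ratio was -1.22 for the summed chains and -1.57 for Col1a1 against -1.45 and -1.95 without this. Since the summed chains varied against this marker sum in both libraries, matching on it takes away part of their difference by construction. These values are given as a description.

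The same held in subsets marked by other genes. For each of 7 marker sets without fibrillar chains, the fifth of all stellate cells with the highest marker sum was compared with the rest, and proliferating cells were compared likewise, giving 16 subsets. All chains but Col24a1 were lower in p16-Alb-LRTD in 16 of 16, with log2 ratios from -2.32 to -0.88 for Col1a1 and from -0.91 to -0.18 for Col5a1. Col24a1 was lower in 3 of 16, with log2 ratios from -0.09 to 0.34. Among these subsets the summed chains were highest in cells rich in Alcam (an adhesion molecule) and Svep1 (a matrix protein), with 21193 CPM in p16-LRTD and 5671 in p16-Alb-LRTD. The sets were chosen with earlier results of these data known, and Alcam itself varied with the summed chains (r of 0.54 and 0.43). This rank could thus follow from the choice of markers and is no separate result. The cells rich in Alcam and Svep1 were no rarer in p16-Alb-LRTD (22.4% of stellate cells against 17.9%). Cells rich in Grid1, Inmt and Sdk2 were also more frequent in p16-Alb-LRTD (28.8% against 12.6%) and had 15020 CPM in p16-LRTD and 4174 in p16-Alb-LRTD. So were cells rich in Tgfbi, Fcna and G0s2 (30.8% against 10.9%), but their summed chains were low, at 4184 CPM in p16-LRTD and 2508 in p16-Alb-LRTD.

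Zonal markers divided the cells in the same way. Cells rich in the pericentral genes Adamtsl2, Rspo3, Spon2 and Podn had 12363 and 3626 CPM of summed chains, a log2 ratio of -1.77. Cells rich in the periportal genes Ngfr, Igfbp3, Il34 and Tagln had 5798 and 3304 CPM, a log2 ratio of -0.81, and made up 26.2% and 12.7% of stellate cells. The smallest difference among the 16 subsets was that of cells rich in Notch3 (a receptor of mural cells) and Clstn2, with 3399 and 2476 CPM and shares of 27.7% and 10.9%.

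**Figure D4:**
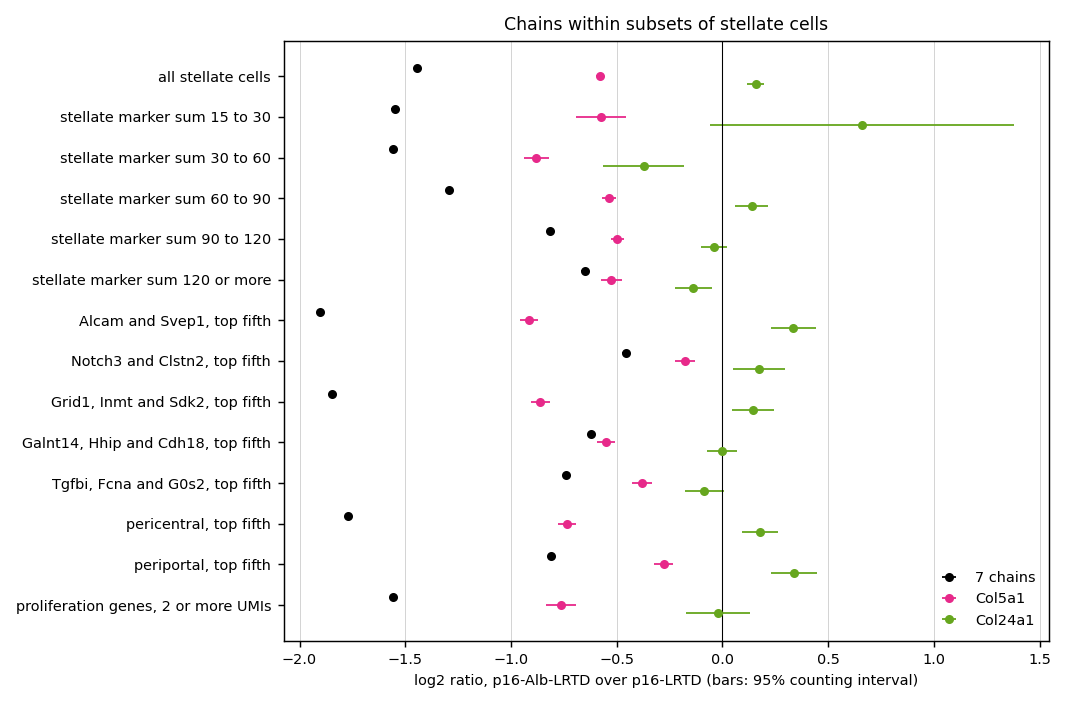
Log2 ratio of p16-Alb-LRTD over p16-LRTD for the 7 chains summed, Col5a1 and Col24a1 in all stellate cells, in bins of the stellate marker sum (UMIs per 10000) and in cells rich in other marker sets, with 95% counting intervals (hidden where smaller than the point). The summed chains lie between -1.90 and -0.46, Col5a1 between -0.91 and -0.18, and Col24a1 on both sides of 0.

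Genes whose levels varied with the summed chains from cell to cell did not all share the difference between libraries. Among 6336 genes with at least 20 CPM in both libraries, the 10 with the highest r in both were Alcam, Col6a3, Vim, Dpt, Gsn, Mmp2, Loxl1, Plxna4, Cpxm1 and Sparc, with r from 0.37 to 0.73 in p16-LRTD and from 0.32 to 0.43 in p16-Alb-LRTD. Lower by 2-fold or more in p16-Alb-LRTD were 3 of these 10, against 0.943% of all genes with at least 5 CPM on average (the share at 20 CPM was not computed). The 3 were Vim, a filament protein (1099 and 537 CPM), Dpt, a matrix protein (60.4 and 29.7), and Loxl1, a crosslinking oxidase (87.1 and 40.3). Another 3 were lower by less, and 4 were higher. The 4 were Gsn, an actin-severing protein (383 and 528 CPM), Mmp2, a gelatinase (153 and 175), Plxna4 (83.6 and 99.6) and Cpxm1 (99.3 and 115). Ecm1, which was part of the stellate gate, was among the 5 genes that varied most strongly against the chains in both libraries (r of -0.58 and -0.45).

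Genes that make, process and bind the fibrils are described by list. For procollagen folding and export, 16 of 18 genes were measured at 5 CPM or more, and 0 were lower by 2-fold or more, against 0.943% of all genes, so that this count says nothing particular of the list. Their median log2 ratio was -0.23, with 13 lower and 3 higher, against a median of -0.05 over all genes. Serpinh1, the collagen chaperone, had 933 and 842 CPM, Ppib, a prolyl isomerase, 590.5 and 442, and Creb3l1, a transcription factor of the secretory pathway, 130.2 and 86.6. P4ha1, a prolyl hydroxylase subunit, was higher at 133 and 154 CPM.

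Crosslinking enzymes were lower in 5 of 5 cases with a median log2 ratio of -0.52, against -0.05 over all genes. The share of all genes lower by any amount was not computed. Lox had 20.6 and 9.24 CPM (log2 ratio -1.16, -1.26 to -1.06) and Loxl1 a log2 ratio of -1.11 (-1.16 to -1.07), and Loxl2 had 140.4 and 107 CPM. Among the enzymes that remove propeptides, Bmp1 (56.2 and 41.5 CPM) and its enhancer Pcolce (391 and 279) were lower. Adamts2, far more abundant than Adamts3 and Adamts14, was also lower, at 315 and 275 CPM (log2 ratio -0.19). Adamts3 was 2.80-fold higher, with 19.7 and 55.3 CPM (log2 ratio 1.49, 1.42 to 1.55), and Adamts14 was higher at 56.1 and 75.5. In this set of 8, 5 were measured, with 3 lower and 2 higher and a median log2 ratio of -0.19, against -0.05 over all genes.

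Other collagens of fibrils and the proteins that coat them were mixed. Col27a1, the single further fibrillar chain above 5 CPM of 4 listed, had 65.3 and 74.3 CPM, a log2 ratio of 0.19 (0.14 to 0.23) like that of Col24a1. Of 4 measured fibril-associated collagens 1 was lower by 2-fold or more, against 0.943% of all genes. It was Col12a1 at 9.17 and 4.07 CPM, while Col14a1 had 2479 and 2171. Among 6 proteoglycans that bind fibrils, Fmod was 3.38-fold lower (8.71 and 2.58 CPM) and Lum had 902 and 665 CPM, while Dcn (18430 and 22186) and Ogn (94.7 and 152) were higher. The collagen receptor subunit Itga2 was lower at 8.23 and 3.96 CPM, as were 4 of the 5 other receptors measured by smaller amounts, and Ddr2 had 227 and 247.

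The transforming growth factor beta (TGF-beta) pathway, a major inducer of collagen genes, had a median log2 ratio of 0.09 over 15 genes. Of these, 6 were lower and 9 higher, and the median over all genes was -0.05. Ltbp2 was lower by 2-fold or more (15.4 and 7.22 CPM). Ccn2, a widely used target gene of the pathway that the files list under its older name Ctgf, was higher at 335 and 734 CPM, a log2 ratio of 1.13 (1.12 to 1.15). The ligand Tgfb1 had 60.6 and 71.1 CPM and Tgfb2 59.1 and 38.6.

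**Figure D5:**
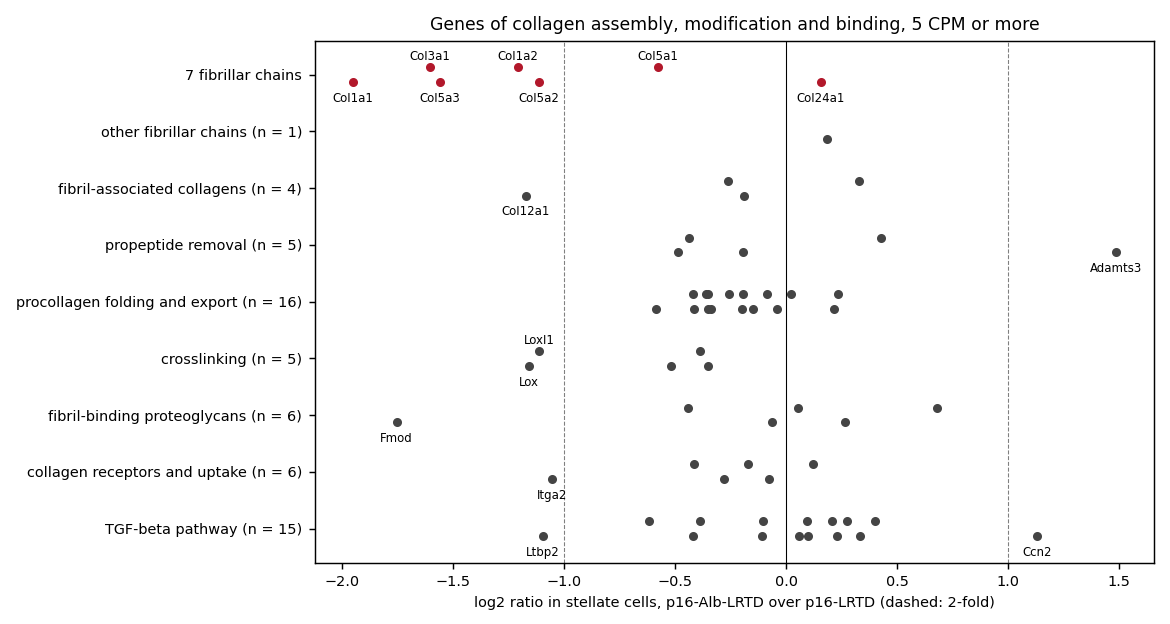
Log2 ratio of p16-Alb-LRTD over p16-LRTD in stellate cells for the 7 chains and for genes of 8 lists with at least 5 CPM on average, 1 point per gene, with names for the chains and for genes past 2-fold (dashed lines). Left of the 2-fold line lie 5 chains and 6 listed genes, and right of the opposite line lie Adamts3 and Ccn2. Of all 10179 genes at this level, 0.943% were lower and 0.923% higher by 2-fold or more.

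In endothelial and Kupffer cells the chains were far lower than in stellate cells, and the summed difference in endothelial cells rested on a few cells. Endothelial cells of p16-LRTD held 4233 chain UMIs, of which 1 cell held 2570 (60.7%) and 4 cells 81.2%, whereas no endothelial cell of p16-Alb-LRTD held more than 10. With all cells the summed chains had 688 and 71.5 CPM, a log2 ratio of -3.26, and without the 4 cells of at least 50 chain UMIs 132 and 71.5 CPM, a log2 ratio of -0.88 (-1.08 to -0.68). Portal fibroblast markers summed to 84.3 and 39.7 CPM in all endothelial cells (5 of 7 lower) and the proliferation genes to 68.2 and 12.8 (5 of 5 lower), and their part in the result was not tested. Without the 4 cells Col3a1 had 62.0 and 25.4 CPM and Col1a1 16.2 and 5.02. Of 9858 genes with at least 5 CPM in endothelial cells 3.65% were lower by 2-fold or more.

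In all endothelial cells Col5a2 had 39.3 and 24.4 CPM, a log2 ratio of -0.69 (-1.05 to -0.35). Without the 4 cells, all of p16-LRTD and left out after seeing the data, it had 25.4 CPM (21.5 to 29.7) in p16-LRTD and 24.4 (19.7 to 29.7) in p16-Alb-LRTD (log2 ratio -0.06, -0.44 to 0.32). The intervals of Col5a1 (-1.28 to 0.61), Col5a3 and Col24a1 then held 0 as well, on far fewer UMIs. In p16-Alb-LRTD it supplied 34.0% of the chain UMIs of endothelial cells (97 of 285), against 4.46% in stellate and 3.02% in Kupffer cells. In p16-LRTD its share was 5.72% of the chain UMIs of endothelial cells, or 19.3% without the 4 cells, against 3.55% in stellate and 3.05% in Kupffer cells.

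In Kupffer cells the summed chains had 160.0 CPM (150.0 to 170.5) and 44.5 (38.5 to 51.1), a log2 ratio of -1.85 (-2.07 to -1.62), or -1.46 without 1 cell of 229 chain UMIs. Col3a1 had 95.9 and 22.8 CPM, Col1a2 28.8 and 9.61, and Col1a1 22.4 and 6.48. Col24a1 had no UMI in p16-LRTD and 3 in p16-Alb-LRTD, and Col5a3 had 4 and 0. Of 9514 genes 1.87% were lower by 2-fold or more. Col1a1, Col1a2, Col3a1, Col5a1 and Col5a2 had intervals below 0 here, and Col3a1 was the most abundant, as in stellate cells. Portal fibroblast markers summed to 62.9 and 33.1 CPM in Kupffer cells (7 of 7 lower), mostly C3 (39.7 and 31.5) and, in p16-LRTD, Mgp (17.5 against 0.447). The proliferation genes summed to 75.7 and 40.2 CPM (5 of 5 lower). What part other cells or their released RNA had in these UMIs was not tested.

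In cells that passed no gate but had at least 5 UMIs per 10000 of Dpt, Mgp, Igfbp6, C3, Msln, Upk3b and Wt1, markers of fibroblasts and mesothelial cells, the summed chains were nearly alike in both libraries. The 119 cells of p16-LRTD had 17537 CPM of summed chains (17386 to 17689) and the 46 cells of p16-Alb-LRTD 17706 (17482 to 17932), a log2 ratio of 0.01 (-0.01 to 0.04). Col1a1 had 4881 and 4602 CPM, Col1a2 5099.6 and 5051, and Col3a1 6468 and 7143. Their balance of Col1a1 per Col1a2 was 0.957 and 0.911, above that of stellate cells in both libraries. Col5a2 was at 534 and 422 CPM and Col24a1 at 181 and 102, so that Col24a1 was here lower in p16-Alb-LRTD (log2 ratio -0.83, -1.12 to -0.56).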

How the data were processed

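Single-cell RNA libraries were made with the 10x 3' v3.1 kit. The deposited values are UMI counts, not normalised, that the authors obtained with CellRanger 7.0.1 on mm10. Whether intronic reads were counted is not given in the sources used here, and 3' UMI counts are not scaled by gene length. Of 31054 features, 30934 were matched by identifier to GENCODE vM21.

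Here, after the study's methods, barcodes above 5% mitochondrial UMIs, outside 2000 to 7000 genes or above 50000 UMIs were left out. No doublet caller was run, and the upper limits and the demand for 1 gate stand in for it. Counts were summed per class and library and expressed as CPM. Intervals are 95% exact Poisson (levels), exact conditional (ratios) or Clopper-Pearson (shares), and cover counting error only. Ratios of chains have intervals from the same counts. Cells were thinned without replacement to 5000 UMIs where stated, which left out 16 and 7 stellate cells. Python 3.11.15, numpy 2.4.6 and scipy 1.17.1 were used, with edgeR 4.0.16 for 1 scaling alternative. The interval code was tested on simulated data. The chains, gates and gene lists were chosen with earlier results of these data known. Genes were named as members, as list members of at least 5 CPM, or as the 10 genes most like the summed chains. Marker genes of other cells and the 5 genes that varied against the chains, of which 1 is named, were outside that rule.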

Additional observations from a re-analysis of the deposited data

Results flagged for a closer look

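Cells outside the gates were no part of the comparison of the 3 classes. In those with fibroblast or mesothelial markers (119 cells in p16-LRTD, 46 in p16-Alb-LRTD), 2 chains were above the level of the control genotype. Col3a1 had a log2 ratio of 0.14 (0.11 to 0.18), and Col5a3 had 76.5 and 99.4 CPM, a log2 ratio of 0.38 (0.06 to 0.69). In stellate cells the same 2 chains had log2 ratios of -1.60 and -1.56. The difference between these classes was not tested, since each genotype had 1 library.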

How the results depend on the processing

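Of 189 alternatives computed for 13 results, 91 moved, 97 stayed the same and 1 turned a direction. In the last, Col24a1 in stellate cells went from 0.16 to -0.029 at pooled gate-bin shares, a setting chosen after seeing the data. All values here are log2 ratios of p16-Alb-LRTD over p16-LRTD unless named otherwise, and they count as moved when outside the counting interval, which is narrow. The summed chains and Col1a1 in stellate cells (-1.45 and -1.95) became -1.46 and -1.97 with a gate of 10 per 10000, -1.41 and -1.88 with a gate on Colec11, Dcn, Pdgfrb and Des, -1.45 and -1.97 with cells of more than 1 gate, -1.49 and -2.00 without upper limits, -1.39 and -1.90 in cells of 10000 to 30000 UMIs, -1.31 and -1.82 without fibroblast or mesothelial markers, -1.28 and -1.75 as means of per-cell CPM, -1.40 and -1.91 with TMM, -1.40 and -1.91 with median-of-ratios scaling and -1.36 and -1.80 with endothelial CPM subtracted. Added after seeing the data, cells of no gate gave -1.41 and -1.88, and pooled gate-bin shares -1.22 and -1.57. At those shares Col1a2 (-0.99) and Col5a2 (-0.93) were no longer past 2-fold, nor was Col5a2 (-0.98) as a mean of per-cell CPM. The summed chains moved to -1.42 without proliferating cells and to -1.45 with the chains out of the totals, while Col1a1 did not move. Without proliferating cells Col1a2 (-1.18), Col3a1 (-1.57) and Col5a2 (-1.07) moved too, as did Col3a1 (-1.61) with the chains out of the totals. Col1a1 per Col1a2 (-0.75) became -0.69 with the other stellate gate, -0.77 without proliferating cells, -0.77 without fibroblast or mesothelial markers, -0.69 with cells of no gate, -0.71 as means of cells and -0.70 with endothelial CPM subtracted. The difference in the share held by the top 10% of cells (-11.01 percentage points) became -9.48 with the other gate, -10.3 without upper limits, -12.2 without proliferating cells, -11.8 without fibroblast or mesothelial markers and -10.2 at 3000 UMIs. In endothelial cells the summed chains (-3.26) became -1.05 with cells of more than 1 gate, -2.33 without upper limits, -1.18 without cells of 3 or more stellate marker UMIs per 10000 and, chosen after seeing the data, -0.88 without cells of 50 or more chain UMIs. In Kupffer cells (-1.85) the same settings except the upper limits gave -2.68, -2.21 and -1.46. The causes were not tested. The share of genes lower by 2-fold or more in stellate cells was 2.17% with a minimum of 1 CPM and 11.5% with none. No paired analysis was possible because there was 1 library for either genotype.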

Other observations

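Cells that passed more than 1 gate (245 in p16-LRTD, 221 in p16-Alb-LRTD) had median depths of 24438 and 29404 UMIs, above those of stellate cells. Their summed chains had 4165 and 1497 CPM, a log2 ratio of -1.48 (-1.51 to -1.44). Col1a1 differed more than in stellate cells, with 803 and 113 CPM, a log2 ratio of -2.83 (-2.94 to -2.71), and there were 0.741 and 0.238 Col1a1 UMIs per Col1a2 UMI. Col5a1 had 311 and 227 CPM and Col24a1 48.6 and 54.9.

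All cells of no gate together (194 and 113) had 12446 and 9357 CPM of summed chains. Hepatocyte markers summed to 1023 and 433 CPM there, against 20.9 and 15.4 in stellate cells.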
